A study of Mus musculus with 14 samples.

Results

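The methylation of CpG sites nearest to chemosensory receptor genes was measured in the mammary adipose tissue of 14 female mice. Of the 75761 sites in the deposited table, 749 were assigned to a gene whose symbol began with Olfr, Vmn1r, Vmn2r, Tas1r, Tas2r or Taar followed by a digit, and these 749 receptor sites belonged to 275 genes. The mice were wild type and of the strain C57BL/6N (C57BL/6NCrl in the methods of the study). CON-LFD mice (n = 3) were given the low-fat diet D12450J throughout, and the other 11 were first made obese on D12492, in which 60% of the energy is fat. DIO-HFD mice (n = 4) stayed on D12492, DIO-LFD mice (n = 3) were switched to the low-fat diet, and DIO-VSG mice (n = 4) were given the low-fat diet after vertical sleeve gastrectomy, an operation that removes most of the stomach. Mice without the gastrectomy had a sham operation. All 14 carried a tumor of E0771 mouse mammary cancer cells, injected in week 22 into mammary fat pad 4, and the tissue came from the tumor-free pad 9 on the other side. The labels also list E0771 as the cell line of these samples, although the tissue is given as normal, and they give no age.

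Chemosensory receptors are the proteins with which an animal smells and tastes. Olfactory receptors (Olfr) are expressed in the neurons of the nasal epithelium, each neuron using a single receptor gene chosen from the whole family, while vomeronasal receptors of types 1 and 2 (Vmn1r and Vmn2r) detect pheromones and related cues in the vomeronasal organ. Tas1r proteins form the sweet and umami receptors of the tongue, Tas2r proteins detect bitter compounds, and trace amine-associated receptors (Taar) detect volatile amines. The genes stand in large clusters of near copies between long stretches of repeated DNA, and outside the sensory organs most of them are kept silent in condensed chromatin. Expression was not analysed here, so their silence in this tissue was not checked.

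Reduced-representation bisulfite sequencing reads short fragments cut by MspI at CCGG, and a level is the methylated share of the reads at a cytosine. Read counts are not in the table, the depth of the levels is therefore unknown, and no interval was computed. A level is also an average over the cells of the tissue, and a changed mix of cells cannot be told apart from a change within cells. Of 10 adipocyte marker genes, 3 had a site within 1000 bp of the transcript start, with means of 2.90% at Pparg, the master regulator of adipocytes, 48.1% at Lipe and 73.4% at Cfd. Sites that near were found for 4 of 10 mammary epithelial genes (Krt5 78.9%, Esr1 19.5%, Cldn3 7.98%, Cldn4 64.8%), 3 of 10 immune genes (Lat 46.1%, Zap70 63.6%, Ikzf1 38%) and 0 of 4 endothelial genes.

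Most receptor sites lay outside genes and away from receptor promoters. The median distance to the transcript start was 14234 bp, against 5141 bp at the other 75012 sites. Of the 749 in the table, 693 (92.5%) had no promoter, exon, intron or CpG island flag, against 26.2% of the other sites, and 4 were flagged as promoter, 4 as exon and 2 as CpG island. In GENCODE M21 (GRCm38, the mm10 assembly) 658 (87.9%) lay outside every gene, 40 lay within the span of the receptor gene to which they were assigned, and 3 lay in a coding exon. The nearest start of a protein-coding transcript was that of a receptor gene for 740 of the 749. That share follows largely from the choice of sites by their nearest gene. The sites thus lie mostly away from receptor promoters.

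The families were covered unevenly. Olfr had 449 sites at 178 genes, out of 1428 Olfr symbols in RefSeq (GRCm38.p6), Vmn1r had 134 sites at 47 of 233 and Vmn2r had 148 sites at 45 of 126. Of the taste receptors, Tas1r had 15 sites at 2 of 3 genes and Tas2r had 3 sites at 3 of 40. Taar, with 16 genes, had 0 sites. A total of 120 genes had 1 site, 44 had 5 or more, and the most was 14 at Tas1r2. Chromosome 7 held 239 receptor sites (31.9%, against 7.36% of the other sites) and chromosome 2 held 109 (14.6% against 7.58%). With a gap of at most 1 Mb the sites formed 54 clusters, the largest at chr2:86020435-90272750 with 72 sites near 32 genes.

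The receptor promoters held fewer CpGs than promoters in general. RefSeq promoters, taken from 250 bases before to 50 after the start, held CCGG in 83 of 1315 receptor entries (6.31%), against 52.8% of all 32851 entries. CCGG reads the same on both strands. Their median number of CpGs was 1, against 7 over all entries, and their median GC content was 36% against 52.7%. Of the 275 genes with a site, 233 were matched, and 7.69% of their 234 promoter entries held CCGG.

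Most receptor sites lay in repeated sequence. In the soft-masked genome 717 of 749 (95.7%) were repeat-masked, against 23.2% of the other sites. The 32 bases around a receptor site occurred at a median of 59 places in the genome, both strands counted, against 1 for the other sites, and were found once for 168 (22.4%) against 81.3%. At 210 receptor sites they occurred more than 1000 times. Reads from such copies can be placed at the wrong copy or dropped as ambiguous, and the part this played in the levels was not tested.

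The windows of 201 bases around the sites were grouped by similar sequence (at least 80% identity over at least 120 bases, joined by single linkage). The 5 largest groups together held 658 of the 749 sites, and the other 91 sites fell into 41 groups of at most 7 sites, of which 19 were a single site. Group 1 held 276 sites at 84 loci on 16 chromosomes, and group 2 held 179 sites at 149 loci on 15. Groups 3, 4 and 5 held 86, 86 and 31. These groups were formed after the data had been seen and serve as description. In group 1 the same CpG was measured in 83 copies at 68 loci, with mean levels from 40.7% to 92.1% and a median of 82.9%. In group 2 the same CpG, part of CCGG, was measured in 55 copies, from 67.6% to 96.5% with a median of 89.6%. The copies with the median, lowest and highest level are shown to make this visible, with the measured CpG in capitals. In each group they are similar stretches of DNA beside a different receptor gene.
Group 1, median, beside Olfr501-ps1, chr7:108499653-108499714, minus strand: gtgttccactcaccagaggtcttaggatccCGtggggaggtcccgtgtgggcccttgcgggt
Group 1, lowest, beside Vmn2r58, chr7:41903354-41903415, plus strand: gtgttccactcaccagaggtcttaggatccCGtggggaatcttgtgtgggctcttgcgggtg
Group 1, highest, beside Olfr1095, chr2:86843423-86843484, minus strand: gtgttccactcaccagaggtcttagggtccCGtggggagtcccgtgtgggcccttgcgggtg
Group 2, median, beside Vmn1r12, chr6:57149437-57149498, plus strand: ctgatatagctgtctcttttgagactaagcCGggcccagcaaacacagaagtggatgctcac
Group 2, lowest, beside Vmn2r71, chr7:85641886-85641947, minus strand: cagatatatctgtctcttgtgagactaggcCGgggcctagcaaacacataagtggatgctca
Group 2, highest, beside Olfr331, chr11:58506222-58506283, minus strand: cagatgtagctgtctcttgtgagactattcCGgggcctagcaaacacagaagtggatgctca

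The group 1 copy beside Vmn2r58 differed from the median copy by 6 base edits within these 62 bases and the copy beside Olfr1095 by 3, yet their mean levels were 40.7% ± 9.28 (SD, n = 14 mice) and 92.1% ± 5.32. Beside Olfr501-ps1 the level was 82.9% ± 7.84. The range of the Vmn2r58 copy, 24.5% to 58.1%, did not overlap that of the Olfr1095 copy, 78.6% to 96.4%. In group 2 the copies beside Vmn2r71 (58.5% to 79.6%) and Olfr331 (84.6% to 100%) were also apart in all 14 mice. The 32 bases around the measured CpG occur at 11 places in the genome for the Vmn2r58 copy and at 4430 for the Olfr1095 copy. They occur at 2411 places for the Vmn2r71 copy, and at further places for the Olfr331 copy too. Reads from other copies may therefore enter these levels, which was not tested. These pairs were picked for their levels, so the gaps are given as description.

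The receptor sites were highly methylated. Their mean level was 82.4% and their median 87.6%, against 61.5% and 66.1% at the other sites, and 546 of the 749 (72.9%) had a mean above 80%, against 32%. The level differed with the kind of sequence. The 717 repeat-masked receptor sites averaged 83.4% and the 32 that were not masked 60.4%, while other repeat-masked sites averaged 81.5% and other unmasked sites 55.5%. Receptor sites whose 32 bases were found once averaged 79.5% and those with further copies 83.3%. Exactly 100% was recorded for 10.5% of the single-mouse levels at receptor sites and for 3.01% at the other sites.

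**Figure D1:**
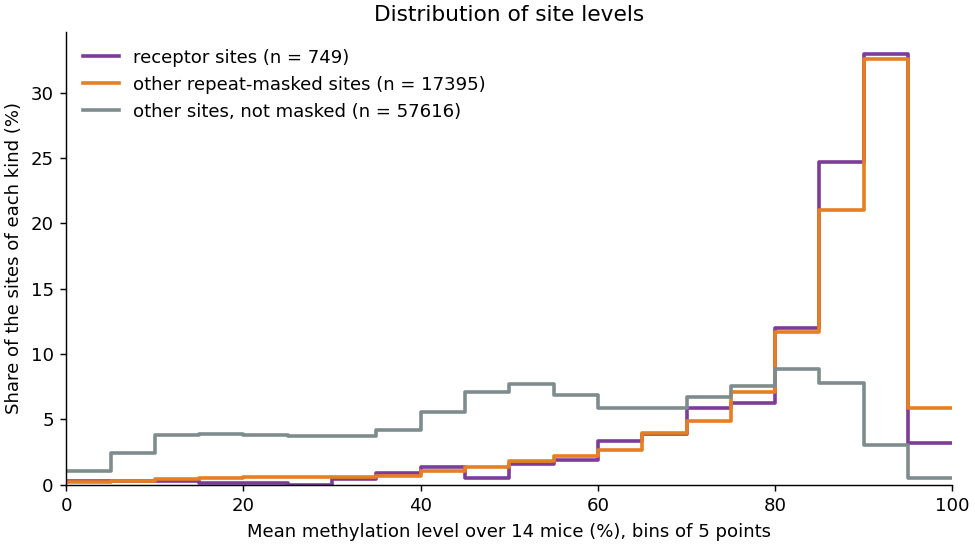
Share of sites (%) by mean methylation level over the 14 mice (%), in bins of 5 points, for the 749 receptor sites, the 17395 other repeat-masked sites and the 57616 other unmasked sites. The receptor curve runs close to that of the other repeat-masked sites, and the unmasked sites are spread over the whole range.

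The Olfr, Vmn1r and Vmn2r families had similar levels, and the Tas1r sites, near sweet and umami receptor genes, were lower. Mean site levels were 82.8% for Olfr, 82.9% for Vmn1r and 83% for Vmn2r, with medians between 87.5% and 88.1%. The 3 Tas2r sites, near bitter receptor genes, had means of 92.3% (Tas2r134), 88.8% (Tas2r110) and 61.4% (Tas2r114). The 15 Tas1r sites averaged 61.4% and 0 of them were repeat-masked, in contrast to 434 of 449 Olfr, 134 of 134 Vmn1r and 146 of 148 Vmn2r sites. The 32 unmasked receptor sites of all families, these 15 included, averaged 60.4%, so the lower level is not particular to Tas1r.

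Tas1r2, the partner that gives the sweet receptor its specificity, held 14 of the 15 Tas1r sites. A block of 7 lay 2377 to 2566 bp before its start, in an intron of the gene model Gm21969, with site means from 36.8% to 59.4%. The site nearest to the start (chr4:139651161) had a level of 49.6%, 45.8% and 56.1% in CON-LFD, 51.4%, 51.6%, 39.7% and 51.2% in DIO-HFD, 44.7%, 65.7% and 50.9% in DIO-LFD, and 38.1%, 43.6%, 44.0% and 36.8% in DIO-VSG mice. All DIO-VSG mice lay below every CON-LFD and DIO-LFD mouse there, and they overlapped DIO-HFD. CON-LFD, DIO-HFD and DIO-LFD overlapped each other. The site in the Tas1r2 coding sequence, 16233 bp after the start, averaged 36.8%. The 6 sites beyond the gene, 30761 to 52563 bp after the start, lay between 67.3% and 85.0%. Over its 14 sites Tas1r2 averaged 61.9% ± 0.202 in CON-LFD (n = 3), 58.7% ± 3.79 in DIO-HFD (n = 4), 61.3% ± 3.64 in DIO-LFD (n = 3) and 61.5% ± 1.94 in DIO-VSG (n = 4). The Tas1r3 site, in an exon shared in position with the Wnt pathway gene Dvl1, averaged 70.5%. Tas1r3 is the subunit common to the sweet and umami receptors.

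Few sites lay beside a receptor start. Within 1000 bp of a GENCODE M21 start there were 18 receptor sites near 9 genes, of which 9 had a mean above 80% and 4 a mean below 50%. The 4 low sites belonged to Olfr368 and Olfr1033. The table assigned the Olfr1033 sites to Olfr1032, whose start is over 12 kb away, and they were picked up after their values were seen. The sequences around the measured sites are shown with the measured CpGs in capitals, on the plus strand. The Olfr1033 stretch contains the start at 86020640. The Olfr368 stretch lies upstream of the start at 37331749 and does not contain it.
Olfr368, chr2:37331310-37331510: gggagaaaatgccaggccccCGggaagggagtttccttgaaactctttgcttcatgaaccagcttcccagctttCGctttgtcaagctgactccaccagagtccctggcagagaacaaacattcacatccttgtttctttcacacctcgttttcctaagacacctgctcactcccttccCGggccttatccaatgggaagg
Olfr1033, chr2:86020415-86020663: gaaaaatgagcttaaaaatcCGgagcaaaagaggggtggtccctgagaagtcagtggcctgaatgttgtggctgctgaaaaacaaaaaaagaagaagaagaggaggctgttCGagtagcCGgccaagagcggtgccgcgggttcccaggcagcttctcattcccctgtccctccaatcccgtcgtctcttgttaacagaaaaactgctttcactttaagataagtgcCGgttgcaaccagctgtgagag

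Upstream of the Olfr368 start at 37331749 the mean level was lower nearer to the start, with 92.9% at −419 bp, 62.4% at −365 bp and 30.5% at −260 bp. At −260 bp the levels were 17.3%, 51.9% and 22.7% in CON-LFD, 56.1%, 25%, 43.5% and 48.6% in DIO-HFD, 17.6%, 60.0% and 11.8% in DIO-LFD, and 8.51%, 8.97%, 21.2% and 34% in DIO-VSG mice. Each group overlapped every other, with an SD of 18.6 points within CON-LFD and 26.3 within DIO-LFD. DIO-VSG minus DIO-HFD was −25.1 points (limma difference in M −1.91 ± 0.79 SE, adjusted p = 0.172; exact permutation p = 0.0571, two-sided). At −365 bp the mean was 71.9% in CON-LFD, 55.0% in DIO-HFD, 64.3% in DIO-LFD and 61.2% in DIO-VSG, and at −419 bp the group means lay between 88.8% and 96.2%. A second GENCODE start of Olfr368 lies upstream, at 37326515, so these sites also fall within the gene.

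The 4 sites beside the Olfr1033 start at 86020640 were not alike. At −205 bp the mean level was 7.83%, with a range of 0% to 18.2% over the 14 mice, and at −114 bp it was 3.74%, with 0% to 19%. At −106 bp, 8 bases further, it was 78.5%, with a range of 70% to 88.9%. At +2 bp it was 34% and spread from 0% to 64.3%, with 64.3%, 0% and 38.7% in CON-LFD and 38.6%, 39.1%, 58.3% and 0% in DIO-HFD mice. The DIO-LFD mice had 36.1%, 35.1% and 50% there, and the DIO-VSG mice 5.88%, 53.7%, 50% and 6.67%. At −114 bp, DIO-VSG mice had 2.50%, 7.55%, 19% and 7.69%, and 7 of the other 10 mice were at 0%. The 32 bases around the −114 bp site occur at 47 places in the genome, and those around the −106 bp and +2 bp sites at 1. The sites at −205, −106 and +2 bp are part of CCGG and the site at −114 bp is not.

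**Figure D2:**
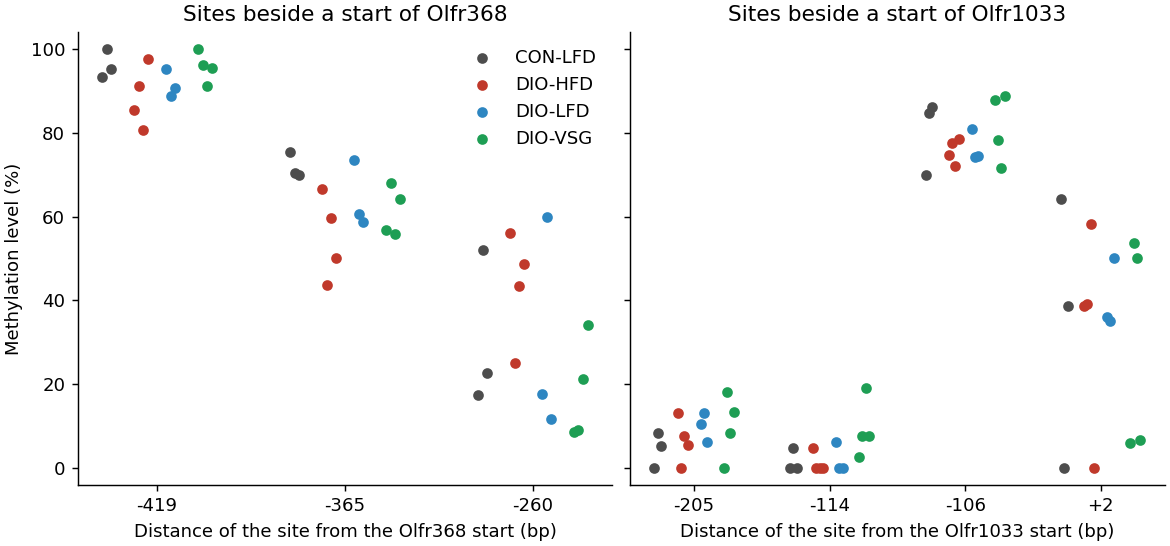
Methylation level (%) of single mice, colored by group, at the 3 sites beside the Olfr368 start and the 4 sites beside the Olfr1033 start, ordered by distance (bp). At Olfr368 the means are 92.9%, 62.4% and 30.5%, lowest nearest to the start, and at Olfr1033 the sites at −205 and −114 bp stay under 20% in each mouse while the site at −106 bp stays at or above 70%.

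Other receptor sites near a start were methylated. The site in the coding exon of Olfr71 (chr4:43705841, 726 bp after its start) had a mean of 93.2% with an SD of 3.41 points over the 14 mice, too little spread to be tested. The Vmn2r site nearest to a start, in an intron of Vmn2r106 (1243 bp), had a mean of 92.7%, and the Vmn1r site, 1388 bp from the Vmn1r23 start, 92.9%. The bitter receptor site nearest to a start was that of Tas2r134 (6163 bp), with 65.5% in DIO-HFD replicate 2 and between 88.2% and 100% in the other mice. The 32 bases of the Vmn1r23 site occur at 19674 places in the genome.

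Mean levels under 20% were found at 7 of the 749 sites. Both Olfr1033 sites are among them. The lowest was a CpG island site 13450 bp from Olfr545 (chr7:102513022), with a mean of 1.12% and at most 3.82% in any mouse. Its window of 201 bases held 22 CpGs, against a median of 9 for the receptor sites. A site 27045 bp from Olfr1423 had 6.69%, and a site 21553 bp from Olfr1373 had 12.1%. The last 2 lay 61 bases apart near Vmn2r121 on chromosome X, at 14.7% and 19.6%. Both were highest in DIO-LFD replicate 2 (39.4% and 51%) and next highest in CON-LFD replicate 2 (34.6% and 39.2%). At the other end, the 3 tested sites with the highest mean, near Olfr791, Olfr1388 and Olfr388-ps1, each averaged 96.8%. The second CpG island site, 9435 bp from Olfr1394 and in a coding exon of the butyrophilin-like gene Btnl9, averaged 44.2%, with group means of 44.9% in CON-LFD, 46.6% in DIO-HFD, 45.1% in DIO-LFD and 40.7% in DIO-VSG.

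The levels of the mice were compared at the 733 receptor sites whose SD over the 14 mice was at least 0.05. Averaged over these sites, the CON-LFD mice had 84.6%, 83.6% and 82.7%. The DIO-HFD mice had 85.0%, 80.7%, 75.4% and 78.5%. The DIO-LFD mice had 83.6%, 82.8% and 82.8%, and the DIO-VSG mice 84.2%, 83.9%, 84.6% and 84.3%. DIO-HFD replicate 1 was thus the highest of the 14 mice and the other 3 DIO-HFD mice were the lowest. The SD between mice was 4.04 points in DIO-HFD and 0.958, 0.459 and 0.287 points in CON-LFD, DIO-LFD and DIO-VSG.

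Compared with the DIO-HFD mean of 79.9%, the mean over receptor sites was 3.71 points higher in CON-LFD, 3.15 points higher in DIO-LFD and 4.33 points higher in DIO-VSG mice, and DIO-VSG was 1.18 points above DIO-LFD. The first 3 differences share the DIO-HFD mice and compare with the SD of 4.04 points among them. Without DIO-HFD replicate 1 they became 5.42, 4.86 and 6.04 points, and without DIO-HFD replicate 3 they became 2.21, 1.65 and 2.83 points. At the 64877 other tested sites the same differences were 3.33, 3.43, 4.90 and 1.47 points. With the mean over those sites subtracted in each mouse, the receptor sites differed by 0.389, −0.282, −0.566 and −0.284 points, so in 3 of 4 comparisons the sign turned. Most of those sites (48224) are unmasked, unlike the receptor sites. At the other repeat-masked sites the last 3 differences were 3.11, 4.26 and 1.15 points, each slightly smaller than at the receptor sites. The first was slightly smaller there too. The sign thus turned against all other sites and not against the repeat-masked ones.

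In every mouse the mean over receptor sites lay above that over the other repeat-masked sites, by 0.0434 to 1.83 points, and above that over all other tested sites by 18 to 23.7 points. DIO-HFD replicates 2 and 3 took different places in the 2 kinds of sequence. At unmasked sites outside the receptor set replicate 2 was the lowest mouse (49.4%, against 51.2% in replicate 3). At the receptor sites replicate 3 was lowest, 8.22 points below the CON-LFD mean, and replicate 2 was 2.92 points below it. At the other repeat-masked sites replicate 3 was 7.29 and replicate 2 was 3.77 points below. DIO-HFD replicate 3 held the lowest level at 230 of the 713 receptor sites with a single lowest mouse (32.3%), against 17.9% at the other sites, and replicate 2 at 10.1% against 21%. Of the 39 clusters with 5 or more tested sites, 30 had their lowest mean in DIO-HFD replicate 3, and DIO-VSG averaged above DIO-HFD in 38. The clusters come from the same mice, and no such count is given for other sites. At the other repeat-masked sites DIO-HFD replicate 3 was also the lowest mouse, and DIO-VSG averaged 4.26 points above DIO-HFD.

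**Figure D3:**
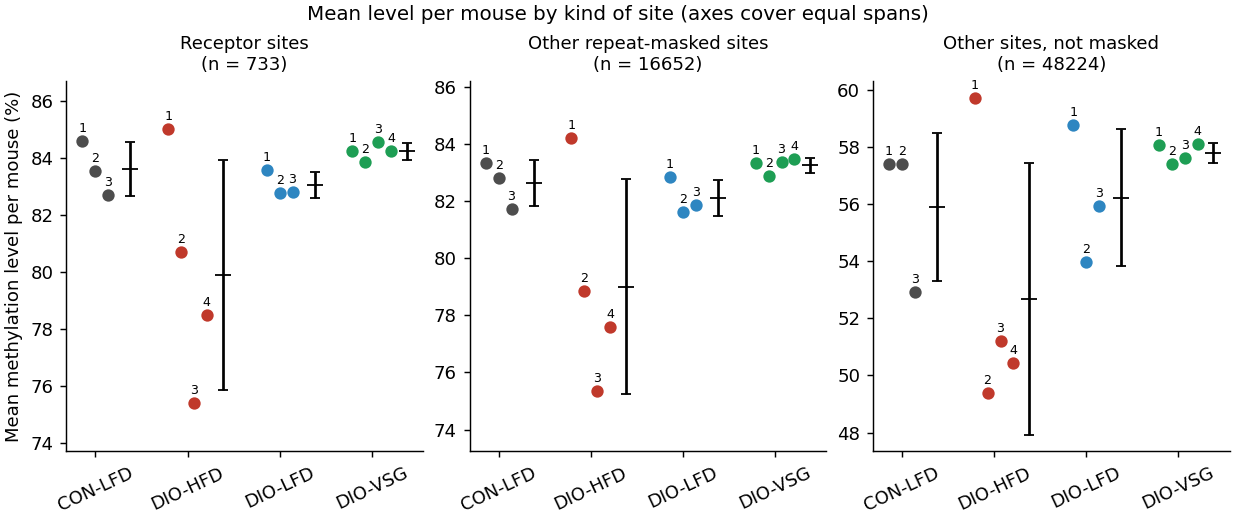
Mean methylation level of each mouse (%, numbered by replicate) over the 733 tested receptor sites, the 16652 other repeat-masked sites and the 48224 other unmasked sites, with the mean and SD of each group in black. The 3 vertical axes cover equal spans from different starting points. DIO-HFD replicate 1 is the highest mouse in each panel, and replicate 3 is the lowest at receptor and other repeat-masked sites.

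The same order of groups appeared in each sequence group, by different amounts. In group 2 the mean was 75.4% ± 5.51 in DIO-HFD and 81.9% ± 0.981 in DIO-VSG mice, a difference of 6.54 points, and DIO-HFD replicate 3 was at 69.3%. In group 1 the means were 83.3% ± 4.03 and 87.3% ± 0.358, a difference of 3.96 points. In groups 3, 4 and 5 the difference was 3.07, 3.30 and 2.81 points. The 26 tested receptor sites outside repeats had means of 60.8% ± 5.58 in DIO-HFD and 63.5% ± 1.06 in DIO-VSG, 2.70 points apart. The 161 tested sites whose 32 bases occur once had 77.8% ± 3.8 and 81.8% ± 0.482, 3.94 points apart.

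**Figure D4:**
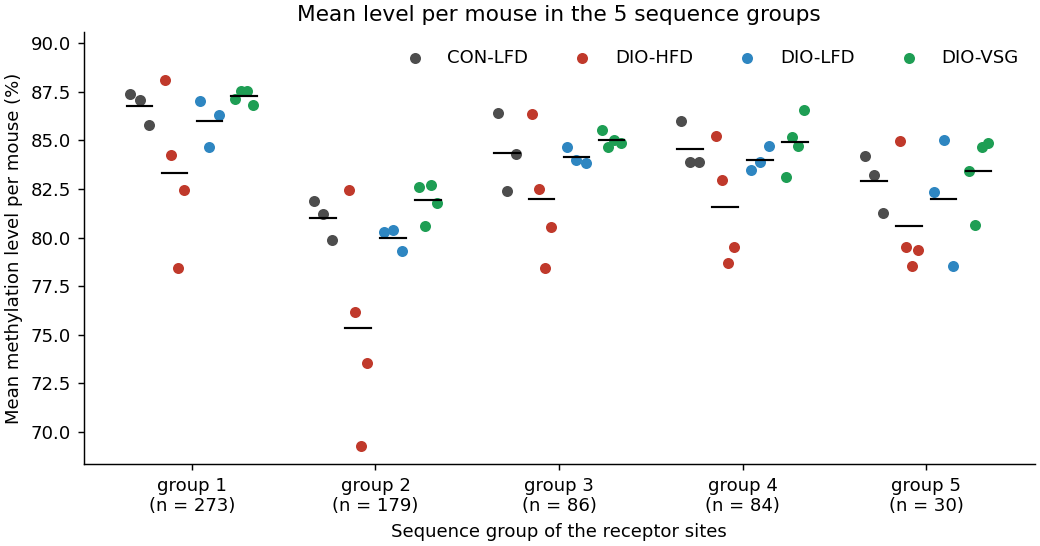
Mean methylation level of each mouse (%) over the tested receptor sites of the 5 sequence groups, colored by group of mice, with black lines at the group means. DIO-HFD has the lowest group mean in all 5 groups of sites, and its mice range from 69.3% to 82.5% in group 2.

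By family the DIO-HFD mean was 80.2% for Olfr, 80.2% for Vmn1r, 80.2% for Vmn2r, 58.9% for Tas1r and 74.9% for Tas2r. The DIO-VSG means were 84.7%, 84.5%, 84.2%, 62.9% and 82.1%, and the CON-LFD means 83.9%, 83.5%, 84.3%, 63.1% and 87.2%. The SD between DIO-HFD mice was between 3.8 and 6.74 points in the 5 families. The 2 genes that followed the mean over all receptor sites most closely across the 14 mice were Vmn1r66 (7 sites, Pearson r = 0.942) and Vmn2r26 (3 sites, r = 0.941), a receptor known for detecting peptides of the major histocompatibility complex. The genes are themselves part of that mean, and the r is given as description. Over its sites Vmn2r26 ran from 63.3% to 84.0% in DIO-HFD and from 82.5% to 88.7% in DIO-VSG mice. Vmn1r66 ran from 70.9% to 83.7% in DIO-HFD and from 84.8% to 86.6% in DIO-VSG, which did not overlap.

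Site by site, 0 of the 733 tested receptor sites passed an adjusted p of 0.05 in the 4 comparisons (limma on M values, adjusted over all 65610 tested sites). M is the log2 ratio of methylated to unmethylated shares. Over all tested sites the share that passed was 0% for CON-LFD against DIO-HFD and 0.00305% in each of the other comparisons. At an unadjusted p under 0.05, receptor sites with a higher mean in the first group numbered 53 (7.23%, against 6.00% of all tested sites) for CON-LFD against DIO-HFD, 46 (6.28% against 7.92%) for DIO-LFD against DIO-HFD, 94 (12.8% against 20.2%) for DIO-VSG against DIO-HFD and 31 (4.23% against 2.42%) for DIO-VSG against DIO-LFD. Those with a lower mean numbered 7 (0.955% against 1.76%), 5 (0.682% against 2.16%), 6 (0.819% against 4.85%) and 14 (1.91% against 1.55%). The median difference in M over the receptor sites was 0.35, 0.29, 0.51 and 0.22, against 0.29, 0.30, 0.48 and 0.16 over all tested sites.

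The groups did not overlap at 45 receptor sites (6.14%, against 4.68% of all tested sites) for CON-LFD against DIO-HFD, of which 41 were higher in CON-LFD. They did not overlap at 37 (5.05% against 4.80%) for DIO-LFD against DIO-HFD, at 32 (4.37% against 7.58%) for DIO-VSG against DIO-HFD and at 46 (6.28% against 7.74%) for DIO-VSG against DIO-LFD. The comparisons with DIO-HFD turned on a single mouse. Without DIO-HFD replicate 1, 25 receptor sites (3.41%) passed the adjusted p for CON-LFD, all higher in CON-LFD, against 12.0% of all tested sites. For DIO-LFD 13 passed (1.77% against 14.6%), all higher in DIO-LFD, and for DIO-VSG 84 passed (11.5% against 34.4%), 83 of them higher in DIO-VSG.

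Beside these shares stands the spread between mice. The median SD within groups was 1.15 in M at receptor sites, 1.14 at other repeat-masked sites and 0.66 at all other tested sites, while on the scale of levels it was 7.10, 6.89 and 6.96 points. For DIO-VSG against DIO-HFD the unadjusted p was under 0.05 at 13.6% of receptor sites, 15.3% of other repeat-masked sites and 28.6% of other unmasked sites. With levels in place of M these shares were 11.9%, 14.6% and 33.5%. Neighboring receptor sites also moved together less than neighbors among all other tested sites, which were not split by repeat masking. At most 50 bp apart, the deviations of the mice from their group means had a median correlation of 0.242 over 280 pairs of neighboring receptor sites, against 0.728 over 26524 pairs of other sites, and at 51 to 300 bp 0.135 (103 pairs) against 0.340 (13126 pairs). Such pairs can share fragments, and the correlations are given as description.

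**Figure D5:**
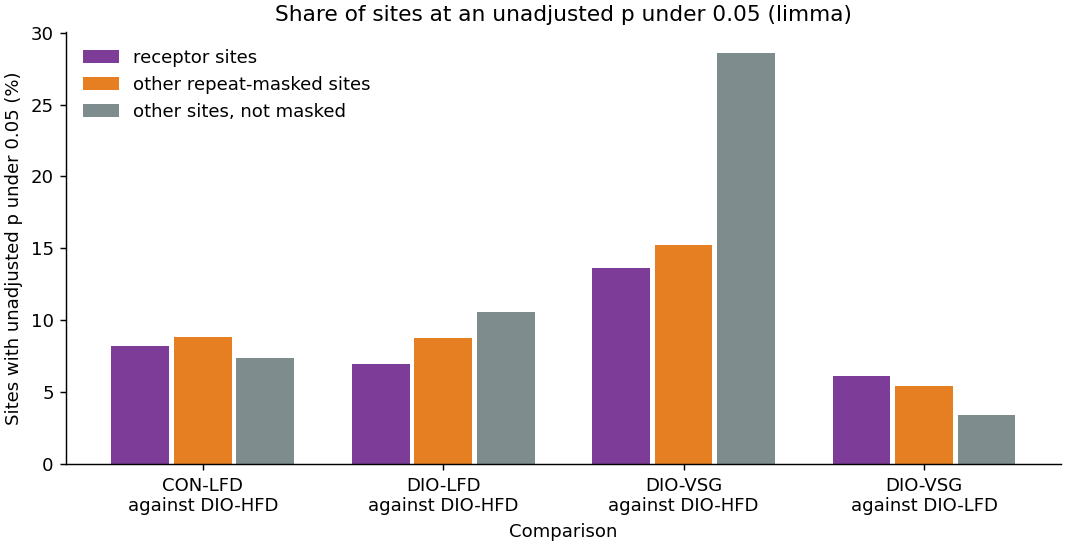
Share of sites (%) at an unadjusted p under 0.05 (limma) in the 4 comparisons, for receptor sites, other repeat-masked sites and other unmasked sites. For DIO-VSG against DIO-HFD the receptor sites (13.6%) stand near the other repeat-masked sites (15.3%) and below the unmasked sites (28.6%).

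For CON-LFD against DIO-HFD, the question was what obesity on the high-fat diet changes. The site with the smallest p was 22895 bp from Vmn1r159 (chr7:22820711), with 93.9%, 97.6% and 94.1% in CON-LFD and 88.2%, 88.0%, 73.7% and 76.7% in DIO-HFD mice. The groups did not overlap, and CON-LFD was 13.5 points higher (difference in M 1.95 ± 0.48 SE, adjusted p = 0.611 by limma; exact permutation p = 0.0571, the smallest that 3 against 4 allows). At the first Olfr1505 site (chr19:13926999) CON-LFD had 100%, 97.6% and 96.0% and DIO-HFD 95.7%, 79.3%, 83.3% and 80.5%, again without overlap. The site 6262 bp from Olfr1271 (chr2:90272689) had 100%, 100% and 94.7% in CON-LFD and 96.0%, 88.9%, 68.8% and 90.0% in DIO-HFD, and there DIO-HFD replicate 1 reached into the CON-LFD range. The adjusted p of each of these was also 0.611.

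For DIO-LFD against DIO-HFD, weight loss and the diet eaten when sampled cannot be told apart. The smallest p belonged to a site 18856 bp from Olfr478 (chr7:108013486). All 3 DIO-LFD mice were at 100% there, and the DIO-HFD mice had 95.7%, 89.5%, 90.0% and 93.3% (difference in M 3.20 ± 0.55 SE, limma adjusted p = 0.382, exact permutation p = 0.0571). The next was near Vmn1r41 (chr6:89729214), with 96.0%, 100% and 100% in DIO-LFD and 86.7%, 93.8%, 88.2% and 81.2% in DIO-HFD. Near Olfr58 (chr9:19767611) DIO-LFD had 95.8%, 93.9% and 89.1% and DIO-HFD 82.1%, 84.8%, 66.7% and 75.9%, a difference of 15.6 points. The groups did not overlap at any of the 3, and the adjusted p of the latter pair was 0.461 and 0.494.

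For DIO-VSG against DIO-HFD, which adds the operation to the change of diet, the largest of the differences named here was at a second Olfr1505 site, 53441 bp from its start (chr19:13972381). The DIO-HFD mice had 69.6%, 58.6%, 72.7% and 58.3% and the DIO-VSG mice 89.2%, 90.0%, 92.0% and 88.9%. The groups were 25.2 points apart without overlap (difference in M 2.18 ± 0.37 SE, limma adjusted p = 0.150, exact permutation p = 0.0286, the smallest that 4 against 4 allows). Near Olfr1323 on chromosome X (chrX:49976450) DIO-HFD had 83.3%, 91.9%, 88.2% and 86.2% and DIO-VSG 100%, 97.8%, 96.4% and 100% (exact permutation p = 0.0286). Near Vmn2r1, one of the receptors expressed together with many other type 2 receptors, DIO-HFD had 94.7%, 85.1%, 88.2% and 86.2% and DIO-VSG 100%, 94.1%, 100% and 100%. There DIO-HFD replicate 1 lay above the lowest DIO-VSG mouse. The adjusted p was 0.150 for each, and with each mouse left out in turn it ran from 0.00222 to 0.344 at the Olfr1505 site, below 0.05 where DIO-HFD replicate 1 was left out.

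Olfr1505 and Olfr743, with 13 sites each, followed Tas1r2 in number of sites. The 13 Olfr1505 sites, all repeat-masked, had means from 72.4% to 93.2%, and their gene mean was 85.7% ± 1.59 in CON-LFD, 82.3% ± 2.93 in DIO-HFD, 86.7% ± 3.37 in DIO-LFD and 88.8% ± 1.55 in DIO-VSG mice. In single mice this mean ran from 80.3% to 86.7% in DIO-HFD and from 86.5% to 89.7% in DIO-VSG, so the groups overlapped at their edges. Olfr743 had 83.4% ± 8.01, 83.4% ± 5.49, 86.1% ± 3.78 and 87.4% ± 2.90, with wide overlap of all 4 groups.

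DIO-VSG and DIO-LFD mice were both moved to the low-fat diet and differed by design in the gastrectomy. For DIO-VSG against DIO-LFD the Olfr478 site again had the smallest p. It had 96.3%, 83.6%, 89.3% and 94.1% in DIO-VSG against 100% in each DIO-LFD mouse (difference in M −3.31 ± 0.55 SE, limma adjusted p = 0.211, exact permutation p = 0.0571). The site thus stood at 100% in DIO-LFD mice, while CON-LFD mice had 87.0%, 96.2% and 85.7%. Near Olfr1039 (chr2:86115452) DIO-VSG had 100%, 90.3%, 100% and 100% and DIO-LFD 72%, 80.8% and 81.5%, 19.5 points apart and without overlap (adjusted p = 0.781). Near Olfr379-ps1, a pseudogene, DIO-VSG had 93.5%, 100%, 100% and 100% and DIO-LFD 94.9%, 92.5% and 81.8% (adjusted p = 0.945), and there the groups overlapped.

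Genes that serve the receptors were covered better near their starts. Of 41 genes in 4 lists for olfactory transduction, receptor choice, vomeronasal transduction and taste transduction, 24 had a site and 17 had one within 1000 bp of the start. The 39 sites that near averaged 44.5%. They included Adcy3, the adenylyl cyclase of olfactory cilia (45.5%), Omp, the olfactory marker protein (72.8%), and Rtp2, which helps carry receptors to the cell surface (95.6%). Of the transcription factors of receptor choice, Lhx2 was at 40.3%, its cofactor Ldb1 at 41.3% and Emx2 at 49.0%. Calhm1, the taste cell channel that releases ATP, was at 80.3%, and Otop1, the sour taste proton channel, at 1.88%. Of the 84 tested sites of these lists 0 passed the adjusted p in any comparison. At an unadjusted p under 0.05, 5 were higher and 2 lower in CON-LFD than in DIO-HFD mice, beside 6.00% and 1.76% of all tested sites. In DIO-LFD 9 were higher and 2 lower (7.92% and 2.16% of all tested sites), and in DIO-VSG 21 were higher and 3 lower (20.2% and 4.85%) than in DIO-HFD. Between DIO-VSG and DIO-LFD mice 3 were higher and 1 lower in DIO-VSG (2.42% and 1.55%).

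Some receptor sites varied widely between mice whatever their group. The SD over the 14 mice was largest near Olfr704 (22.7 points, from 30.8% to 100%), followed by a site near Vmn2r121 (22.4 points, from 16.7% to 90.9%) and the +2 bp site of Olfr1033 (22.1 points). These were ranked by their measured spread and their depth is unknown. The median SD over the 14 mice was 7.15 points at receptor sites and 6.81 points at the other sites.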

How the data were processed

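Genomic DNA was digested with MspI and sequenced after bisulfite conversion (RRBS). Reads were mapped by the authors against mm10 with Bismark and called with methylKit. Bases of low variability or extreme coverage and 2 mice with poor sequencing were removed. For each remaining mouse the level of a site was deposited as a fraction from 0 to 1, not normalized further, with the nearest transcript and flags. The methods name a minimum SD of 0.05, yet 10151 sites in the table were under it. No level was missing.

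Levels b were converted to M = log2((b + 0.01)/(1 − b + 0.01)) at the 65610 sites with an SD of at least 0.05. A single limma 3.58.1 model (R 4.3.3) held all 4 groups, with Benjamini-Hochberg adjustment over those sites. In a simulation of DIO-VSG against DIO-HFD over 65610 sites, 200 sites were given a known change. A change of 2 in M was recovered at 53 of these sites, with 2 false calls. A change of 4 was recovered at 164, with 4 false calls. A count of 0 adjusted calls can therefore miss changes of 2 in M. Recovery at receptor sites alone was not tested. Single sites were also compared by two-sided exact permutation tests. Replicates were separate mice by their labels. Sequence, repeat masking and copies of 32 bases came from GRCm38.p6, and similar windows from blastn 2.17.0. Of the receptor sites, 1 is not at a CpG in that genome. Figures were drawn with Matplotlib 3.10.9.

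The members, lists and tests were chosen with earlier results of these data known. The sites named were the 3 smallest p per comparison, the site nearest a start per family, those with a promoter or island flag, the 3 highest and 3 lowest tested levels, the 3 genes with the most sites and the 2 genes most like the receptor mean. Sites under 20%, those beside a GENCODE start, the most variable sites and the sequence copies were chosen after their values were seen. Alternatives were another offset, untransformed levels, moderation with trend and robust options, only the 2 groups compared, other SD minimums, centring on each mouse's median, the replicate number as a block, each mouse left out, sites within 50000 bp, and for the mean other summaries. Sites whose 32 bases occur once and sites outside repeats were added after seeing the data.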

Additional observations from a re-analysis of the deposited data

Results flagged for a closer look

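Of 66 groups of 4 mice examined (receptor mean, sequence group means and named sites in DIO-HFD and DIO-VSG), 8 held a mouse far from the other 3. The rule picks about 1 in 20 groups by chance, but that rate does not apply at 5 of the 8, where the other 3 mice were tied at 100% or 0%, and several of the sites were chosen for a small p in these mice. In DIO-HFD mice, replicate 1 stood apart in sequence group 5, with a mean of 85.0% against 79.5%, 78.5% and 79.4%. Replicate 1 also had 4.65% at the −114 bp site of Olfr1033, which the table assigns to Olfr1032, against 0% in the other 3. DIO-HFD replicate 3 had 39.7% at the Tas1r2 site nearest to the start, against 51.4%, 51.6% and 51.2%. In DIO-VSG mice, 4 of the sites had a single mouse below 100%: replicate 4 at Olfr791 (81.8%), replicate 1 at Olfr379-ps1 (93.5%) and replicate 2 at Olfr1039 (90.3%) and Vmn2r1 (94.1%). DIO-VSG replicate 3 had 96.3% at the Vmn1r159 site, against 90.5%, 91.3% and 90.9%.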

How the results depend on the processing

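The count of 0 receptor sites at an adjusted p under 0.05 held in 89 of 96 alternatives and moved in 7. With each mouse left out in turn, the comparisons with DIO-HFD called 0 to 25 sites (CON-LFD), 0 to 13 (DIO-LFD) and 0 to 84 (DIO-VSG), each highest without DIO-HFD replicate 1, and DIO-VSG against DIO-LFD called 0 to 1. A fit of only DIO-VSG and DIO-LFD called 1. At an unadjusted p under 0.05 the counts of 60, 51, 100 and 45 ran over 46 to 109, 41 to 98, 60 to 152 and 34 to 54 with each mouse left out. An SD of at least 0.1, which leaves fewer sites, gave 15, 6, 22 and 5. Centring on the median of each mouse gave 33 for DIO-LFD and 54 for DIO-VSG against DIO-HFD, and levels in place of M gave 22 for DIO-VSG against DIO-LFD. Sites whose 32 bases occur once, fewer by construction, gave 14, 10, 26 and 10. The replicate number as a block gave 70, 53, 110 and 41 and 0 adjusted calls. Mice with the same number deviated together (r over 0.1) in 4 of 12 pairs, with r from −0.0804 to 0.202, and the labels do not say what a number marks. Of the 14 mice, 8 correlated best with a mouse of their own number. No chance rate is given for this count, which comes from the data, not from the design. The differences of the mean level kept their sign except with the mean over all other sites subtracted, which gave 0.389, −0.282, −0.566 and −0.284 points. With each mouse left out they ran over 2.21 to 5.42, 1.65 to 4.86, 2.83 to 6.04 and 1.04 to 1.45 points. DIO-VSG minus DIO-LFD became 2.19 points with an SD of at least 0.1, 1.61 with Olfr sites alone and 0.645 outside repeats. Of 317 values of the named sites under alternatives, 11 passed the adjusted p, all with a mouse left out, and 1 turned in sign (Olfr368 at −365 bp, DIO-VSG minus DIO-HFD, a difference in M of −0.12 with centring). Except where the construction shows it, the cause was not tested. Without read counts, what depth limits is unknown.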
